A study of Mus musculus with 237 samples.

Results

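Transcripts of 9 Hedgehog pathway genes were described in single cells of the embryonic mouse kidney: the co-receptors Gas1, Boc and Cdon, the receptor Ptch1, the ligand-binding protein Hhip, the signal transducer Smo, and the transcription factors Gli1, Gli2 and Gli3. They were taken by gene symbol from the 36186 gene entries of the deposited table, in which each of the 9 symbols stood on 1 entry. Values are RPKM, reads scaled to transcript length and to the reads of each cell, so levels of different genes can be set side by side. Levels are given as the mean of log2(RPKM + 1) over cells, with the SD between cells, and a transcript was counted as found in a cell at 1 RPKM or more.

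The study compared kidney cells with and without Pax2, a transcription factor of nephron progenitors, and all but 1 of 237 cells fell into 5 labelled groups. The later age, E18.5 in embryonic days, gave 74 wild-type cap mesenchyme cells, among them cells already derived from the cap, together with 71 wild-type interstitial cells and 44 Pax2 mutant cap mesenchyme cells. The earlier age, E13.5, gave 18 wild-type cells described like the first group and 29 Pax2 mutant cap mesenchyme cells. The strain is given as mixed for all cells, and the Pax2 allele and the marker used for flow sorting are not stated in the labels. The titles of the interstitial cells carry FoxD1_GCE, which the labels do not explain. Those of E18.5 cap cells carry CTRL and those of E13.5 mutant cells Pax2_Mutant, each followed by a number that is not explained either. No label names an embryo or litter, so each group was treated as 1 sample, no test was made, and the SDs describe spread between cells only.

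Hedgehog ligands bind the membrane protein Patched1, the product of Ptch1, which in the absence of ligand holds Smoothened, the product of Smo, inactive. Boc, Cdon and Gas1 bind ligand at the cell surface together with Patched1, while Hhip binds ligand and keeps it from signalling. Active Smoothened acts through the primary cilium on the Gli factors, of which Gli2 is mainly an activator, Gli3 is mainly a repressor once it is cleaved, and Gli1, like Ptch1 and Hhip, is itself transcribed in responding cells. In the embryonic kidney the ligand Sonic hedgehog is made by ureteric epithelium, and mesenchyme around it is known to respond.

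Genes at 1 RPKM or more per cell ranged from 1656 to 7215, with medians at E18.5 of 5210.5 in cap, 5178 in interstitium and 3643 in mutant cells, and at E13.5 of 5566 in cap and 4560 in mutant cells. Read depth itself is unknown, and a transcript missing from a cell may lie below detection. All E18.5 cap cells and 22 interstitial cells carry pool number 2 in their titles, 49 interstitial cells and both E13.5 groups carry pool 3, and the E18.5 mutant cells carry pool 4. Each group has a date of its own in the titles, and the sex of the cells followed the groups. Xist without Y-linked transcripts was found in 67 of 74 cap and 42 of 44 mutant cells at E18.5 and in 27 of 29 mutant cells at E13.5, and Y-linked transcripts without Xist in 70 of 71 interstitial and 17 of 18 E13.5 cap cells. Only the mutant and cap cells of E18.5 and the mutant cells of both ages were thus matched in sex. In the other 4 comparisons made here group and sex cannot be told apart, and in all 6 group and date cannot.

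The transcript of the mutated gene was checked first. Pax2 was found in 56 of 74 E18.5 cap cells, in 18 of 71 interstitial cells and in 15 of 18 E13.5 cap cells. It was found in 0 of 44 E18.5 mutant cells, which allows a share of up to 6.82% (3 divided by the number of cells). In cells labelled Pax2 mutant at E13.5 it was found in 17 of 29, and averaged 1.93 ± 1.88 against 3.26 ± 1.76 in wild-type cap. Whether the mutant allele still gives a transcript is not stated, so the E13.5 value does not check that label. At least 2 of 6 nephron progenitor markers (Six2, Cited1, Eya1, Osr1, Crym, Meox1) were found in 61 of 74 E18.5 cap and 15 of 18 E13.5 cap cells. The same markers were found in 22 of 71 interstitial cells, in 2 of 44 E18.5 mutant cells, where Cited1 was at 0 throughout, and in 8 of 29 E13.5 mutant cells. At least 2 of 6 interstitium and stroma markers (Foxd1, Meis1, Pdgfra, Col1a1, Col3a1, Tbx18) were found in 68 of 71 interstitial cells, in 44 of 44 (E18.5) and 22 of 29 (E13.5) mutant cells, and in 23 of 74 (E18.5) and 4 of 18 (E13.5) cap cells. The E18.5 mutant cells, labelled cap mesenchyme, thus carried the interstitial and not the progenitor markers.

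Gas1, which encodes a co-receptor anchored by a lipid to the outer face of the cell membrane, was the most abundant of the 9 transcripts in every group. In E18.5 cap cells its RPKM ran from 0 through a median of 95.5 to 1633, with a mean log2 level of 6.09 ± 2.03, and it was found in 71 of 74 cells. Interstitial cells ran from 0 through 26.02 to 527 RPKM, with a mean log2 level of 4.31 ± 2.53, and 60 of 71 held it. E18.5 mutant cells ran from 0 through 90.9 to 507 RPKM, with a mean log2 level of 5.80 ± 2.22, and 40 of 44 held it. Cap cells and mutant cells of E18.5 were thus alike in level, and interstitial cells lay lower with a wider spread. At E13.5 the median was 45.02 RPKM in cap (mean log2 level 5.04 ± 1.79, found in 17 of 18 cells, highest 246 RPKM). In E13.5 mutant cells it was 26.2 RPKM (mean log2 level 4.07 ± 2.82, found in 22 of 29 cells, highest 349 RPKM). All 5 groups overlapped, each holding at least 1 cell at 0.

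Few cells lacked Gas1, and their median number of genes was lower. The 3 E18.5 cap cells without it had a median of 2745 genes, against 5309 in the 71 with it. In E13.5 mutant cells the medians were 3210 genes in the 7 cells without and 4572.5 in the 22 with Gas1. In interstitium the gap was smaller, 4398 genes in 11 cells without and 5305.5 in 60 with it.

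Gas1 is a gene on chromosome 13 (60174405 to 60177535, mm10, on the minus strand) that overlaps no other RefSeq gene. Its upstream sequence is shown because it belongs to the transcript that leads the set in all 5 groups. The 250 bases before the RefSeq start site, chr13:60177536-60177785 of GRCm38.p6 read on the minus strand, are given in lower case with each CG pair in capitals.

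Gas1: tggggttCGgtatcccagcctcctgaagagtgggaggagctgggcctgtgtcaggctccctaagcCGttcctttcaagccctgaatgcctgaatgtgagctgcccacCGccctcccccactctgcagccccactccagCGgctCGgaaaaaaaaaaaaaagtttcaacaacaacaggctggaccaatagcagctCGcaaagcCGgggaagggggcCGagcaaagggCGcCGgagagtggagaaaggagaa

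This stretch held 10 CG pairs and was 58.8% G and C. RefSeq windows of 300 bases around the start site (250 before it, 50 from it on) were at hand for 7 of the 9 genes, without Gli1 and Boc. None of the 7 held the Gli consensus GACCACCCA or its reverse complement TGGGTGGTC, and 83 of 32851 windows of the same length did (0.253%). The start sites of Gas1, Smo, Gli2 and Hhip were those of the deposited table. Those of Ptch1, Gli3 and Cdon lay 215, 488 and 30952 bases away, so the Cdon window covers another start than the deposited one.

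Boc, which encodes a co-receptor with immunoglobulin and fibronectin domains, was found most often in interstitial cells and next in E18.5 mutant cells. Interstitial cells ran from 0 through a median of 6.70 to 121 RPKM, with a mean log2 level of 2.94 ± 2.02, and 56 of 71 (78.9%, 95% exact interval 67.6 to 87.7%) held it. E18.5 mutant cells ran from 0 through 2.04 to 149 RPKM, with a mean log2 level of 2.24 ± 2.29, and 23 of 44 (52.3%, 36.7 to 67.5%) held it. E18.5 cap cells had a median of 0 and a highest value of 166 RPKM, with a mean log2 level of 0.91 ± 1.75, and 18 of 74 (24.3%, 15.1 to 35.7%) held it. The interval of the interstitium lay above that of the cap, and that of the mutant cells lay between them with hardly a gap on either side. The mutant share depended on the detection level, as 10 more mutant cells lay above 0 but under 1 RPKM, and 11 were at 0. In interstitium these were 3 and 12 cells, and in E18.5 cap 9 and 47. At E13.5 the median was 0 in both groups. Boc was found in 3 of 18 cap cells (16.7%, 3.58 to 41.4%, highest 19 RPKM) and in 3 of 29 mutant cells (10.3%, 2.19 to 27.4%, highest 66.7 RPKM). The intervals cover counting error only.

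The order of the groups for Boc was interstitium, E18.5 mutant, E18.5 cap, E13.5 mutant and E13.5 cap, and each step between neighbours was smaller than the SDs of the 2 groups it joins. Interstitial cells of both pools held the transcript. It was found in 20 of 22 cells of pool 2 (mean log2 level 3.40 ± 1.76) and in 36 of 49 cells of pool 3 (2.73 ± 2.11). Among cells with 3000 to 5000 genes it was found in 80.0% of interstitial, 51.5% of E18.5 mutant and 26.9% of E18.5 cap cells, close to the shares over all cells. The deposited entry of Boc spans chromosome 16, 44485045 to 44558870, and contains RefSeq's Gm30064 and Mir3081, whose reads cannot be told from its own since no strand is stated.

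Cdon encodes a second co-receptor, related in structure to Boc. It was found in 25 of 71 interstitial cells (35.2%, 24.2 to 47.5%), 16 of 44 E18.5 mutant cells (36.4%, 22.4 to 52.2%) and 9 of 74 E18.5 cap cells (12.2%, 5.71 to 21.8%). Mean log2 levels were 1.18 ± 1.66, 1.57 ± 2.19 and 0.43 ± 1.22 in that order, and the highest values were 51.2, 96.6 and 65.2 RPKM. Interstitium and mutant were thus close to each other and above the cap, but with medians of 0.10, 0.06 and 0 RPKM most cells of every group held little or none. At E13.5 Cdon was found in 6 of 18 cap cells (mean log2 level 0.93 ± 1.45, highest 16.4 RPKM) and in 4 of 29 mutant cells (0.35 ± 0.94, highest 16.8 RPKM). Within the interstitium it was found in 12 of 22 cells of pool 2 and 13 of 49 cells of pool 3. Its entry lies on chromosome 9, 35421124 to 35507652, and overlaps LOC115487300.

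**Figure D1:**
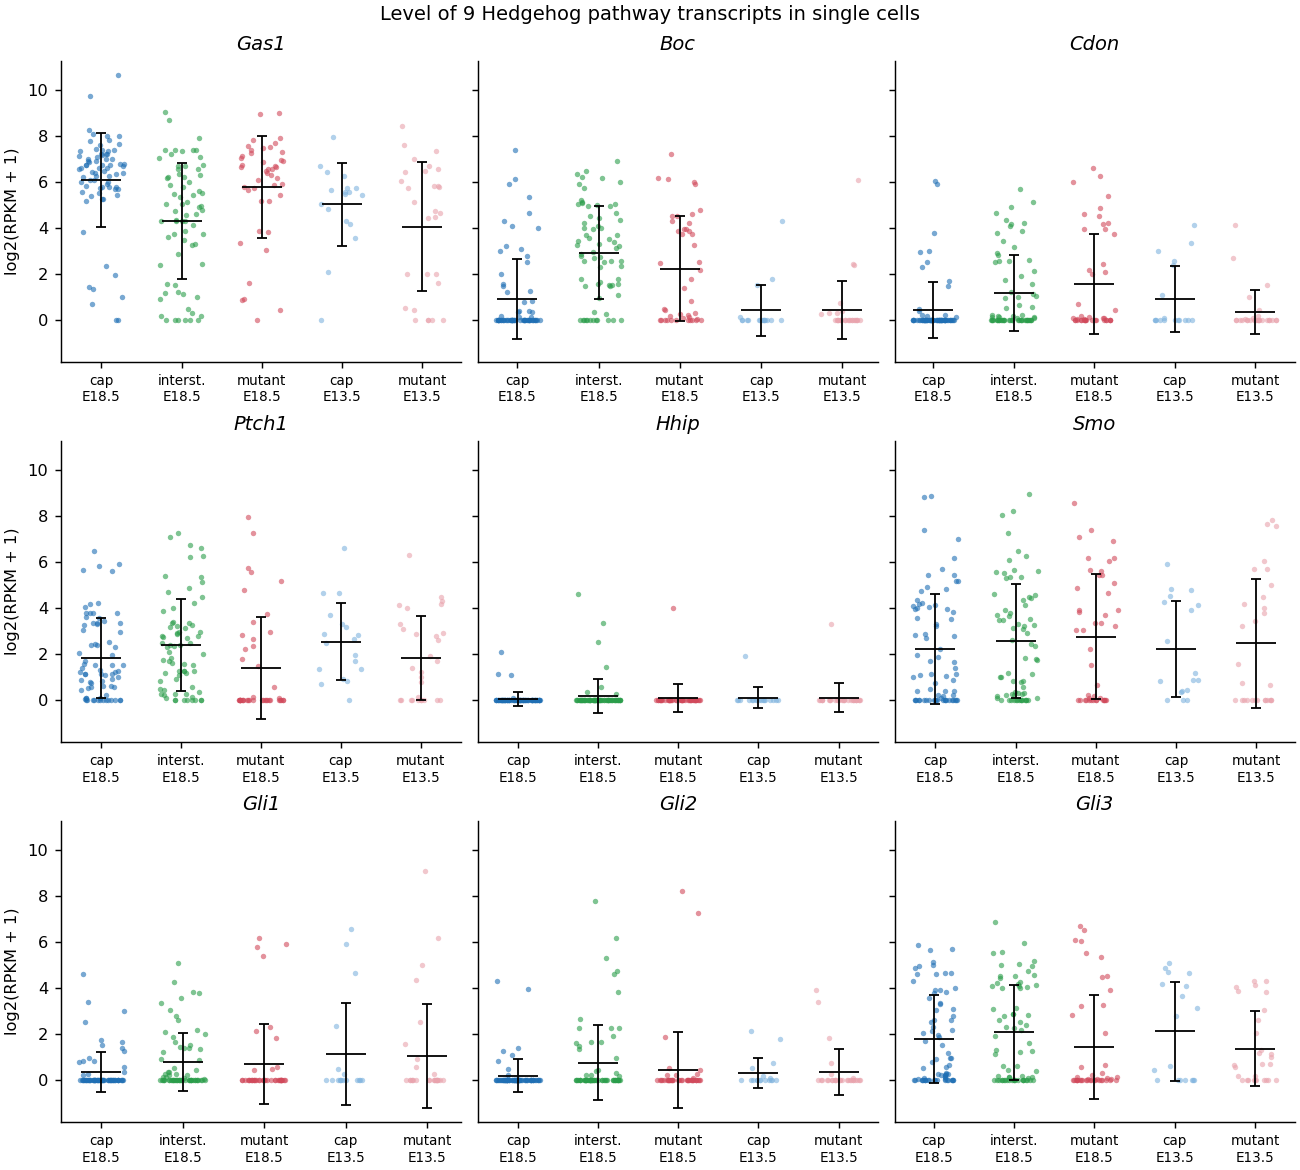
Level of each transcript, log2(RPKM + 1) on the vertical axis, in every cell (points) of the 5 groups (interst., interstitium; mutant, Pax2 mutant cap), with the mean (long bar) and SD between cells (whiskers). Gas1 had the highest mean in each group, Boc had its highest means in interstitium (2.94) and E18.5 mutant cells (2.24), and Hhip lay at 0 in nearly all cells.

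The mix of co-receptors within a cell differed between the groups. All 18 E18.5 cap cells with Boc also held Gas1, and 53 held Gas1 without Boc. In the interstitium 48 cells held both, 8 held Boc without Gas1 and 12 held Gas1 without Boc. E18.5 mutant cells divided into 20 with both, 20 with Gas1 alone and 3 with Boc alone of the pair. All 3 co-receptors were found in 20 of 71 interstitial and 9 of 44 E18.5 mutant cells, against 2 of 74 E18.5 cap cells. At E13.5 they were found together in 0 of 18 cap and 0 of 29 mutant cells. The 0 in 18 cells allows a share of up to 16.7% and the 0 in 29 cells up to 10.3%. Boc and Cdon occurred together in 21 interstitial and 11 E18.5 mutant cells and in 2 E18.5 cap cells.

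**Figure D2:**
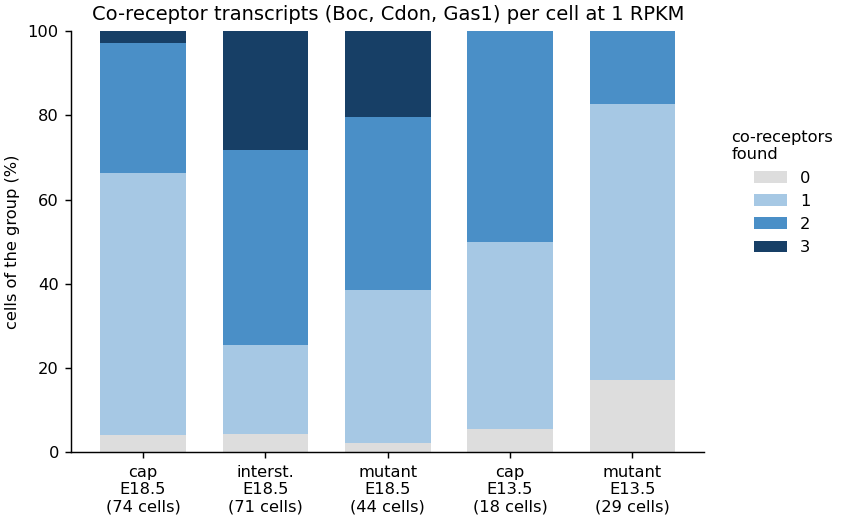
Share of the cells of each group (vertical axis, percent) in which 0, 1, 2 or 3 of the co-receptor transcripts Boc, Cdon and Gas1 were found at 1 RPKM or more. All 3 were found in 20 of 71 interstitial and 9 of 44 E18.5 mutant cells, and in 2 of 74 E18.5 cap cells.

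Gas1 made up a median of 99.9% of the summed RPKM of the 3 co-receptors in the 71 E18.5 cap cells with a sum of at least 1 RPKM. The median share was 72.4% in 68 such interstitial cells (quartiles 21.2 and 92.7%) and 86.2% in 43 E18.5 mutant cells (68.7 and 99.5%). It was 97.1% in 17 E13.5 cap cells and 99.96% in 24 E13.5 mutant cells. Boc exceeded Gas1 in 23 of the 68 interstitial cells and in 5 of the 43 E18.5 mutant cells, but in 1 of the 71 E18.5 cap cells. In E13.5 cap cells this was so in 0 of 17, and in E13.5 mutant cells in 2 of 24. Summed over the 3 genes, the mean log2 level was 6.18 ± 2.04 in E18.5 cap, 5.39 ± 1.99 in interstitium and 6.38 ± 1.70 in E18.5 mutant cells, and these values differed by less than the SDs.

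**Figure D3:**
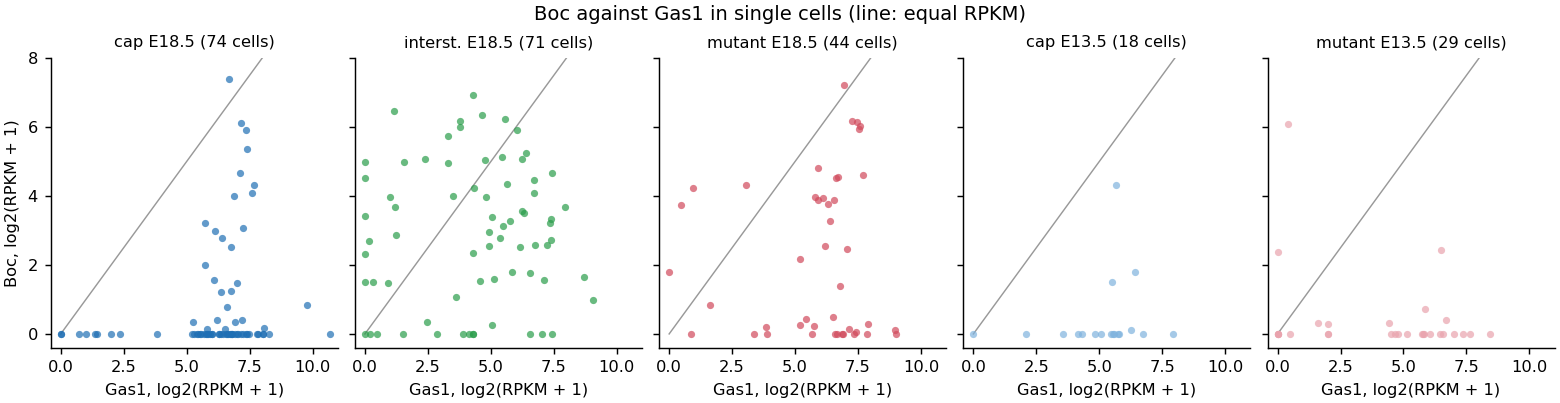
Boc (vertical axis) against Gas1 (horizontal axis), both as log2(RPKM + 1), with 1 point per cell, a panel per group and a line where the 2 are equal. Points above the line are 23 interstitial, 5 E18.5 mutant, 2 E13.5 mutant and 1 E18.5 cap cells with a co-receptor sum of at least 1 RPKM.

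Cell type markers were set beside the co-receptors cell by cell. In E18.5 cap cells Boc did not come with loss of the progenitor marker Six2, which was found in 16 of 18 cells with Boc and 46 of 56 without it, while the stromal collagen gene Col3a1 was found in 6 of 18 and 6 of 56. The stromal marker Meis1 went the other way there, in 7 of 18 cells with Boc and 29 of 56 without. In the interstitium Col3a1 was found in all 56 cells with Boc and in 11 of 15 without, and the stromal receptor gene Pdgfra in 49 of 56 and 9 of 15. Six2 was found there in 12 of 56 cells with Boc and 7 of 15 without. The pericyte marker Rgs5 was found in 36 of 60 interstitial cells with Gas1 and in all 11 without it, while Pdgfrb, of the same marker list, was found in 32 of 60 and 6 of 11. In E18.5 mutant cells Col3a1 was found in all 44 cells and Pdgfra in 21 of 23 with Boc and 20 of 21 without, so these markers did not separate the cells with and without Boc. E13.5 mutant cells held Col3a1 in 18 of 29 and Pdgfra in 8 of 29, yet Boc in 3. The part of cell type makeup in these differences was not tested.

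Ptch1, the receptor gene, was found in 51 of 71 interstitial cells (71.8%, 59.9 to 81.9%), 45 of 74 E18.5 cap cells (60.8%, 48.8 to 71.96%) and 15 of 44 E18.5 mutant cells (34.1%, 20.5 to 49.9%). At E13.5 it was found in 14 of 18 cap cells (77.8%, 52.4 to 93.6%) and 16 of 29 mutant cells (55.2%, 35.7 to 73.6%). Median RPKM was 3.93 in interstitium, 1.35 in cap and 0 in mutant cells of E18.5, and 4.96 in cap and 1.65 in mutant cells of E13.5, and the highest values were 155, 89.3, 247, 97.6 and 77.4 RPKM in that order. Mean log2 levels in the same order were 2.39 ± 1.99, 1.83 ± 1.73, 1.38 ± 2.22, 2.55 ± 1.67 and 1.84 ± 1.84. The share with Ptch1 was lowest in E18.5 mutant cells, which also had fewer genes per cell (medians of 3643, and 5210.5 in E18.5 cap). Among cells with 3000 to 5000 genes the mean log2 level of Ptch1 was higher in E18.5 mutant than in cap cells. The part of gene number in the shares was not tested. E18.5 mutant cells with Ptch1 held a median of 9.63 RPKM, against 4.80 in E18.5 cap and 6.38 in interstitial cells with the transcript. In E18.5 cap cells Ptch1 was found in cells with more genes, a median of 5461 against 4662 in cells without it, and in interstitial cells in those with fewer, 4803 against 5271. Its entry lies on chromosome 13, 63508336 to 63565520, and overlaps no other RefSeq gene.

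Hhip, the gene of the ligand-binding inhibitor, was found in 10 of the grouped cells: 4 interstitial, 3 E18.5 cap and 1 in each of the other groups. The highest value was 23.7 RPKM, in the interstitium. Of the 10 cells, 8 also held Ptch1 and 4 held Gli1. The gene lies on chromosome 8, 79965851 to 80058008, and was too rare to be compared between groups.

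Smo, the transducer gene, was found in similar shares of the cells of all groups. At E18.5 the share was 56.8% in cap (95% exact interval 44.7 to 68.2%), 60.6% in interstitial (48.3 to 71.97%) and 56.8% in mutant cells (41.03 to 71.7%). Among E13.5 cells the share came to 50% in cap (26.02 to 73.98%) and 48.3% in mutant cells (29.4 to 67.5%). Mean log2 levels lay between 2.22 ± 2.10 in E13.5 cap and 2.76 ± 2.71 in E18.5 mutant cells, a span smaller than the SD within any group. Median RPKM was 1.44 in cap, 4.09 in interstitium and 7.31 in mutant cells of E18.5, and 1.07 in cap and 0.69 in mutant cells of E13.5, and the highest values were 467, 502, 383, 60.4 and 228 RPKM in that order. With intervals this wide, a sizeable difference in shares would not be detectable. The gene lies on chromosome 6, 29735497 to 29761366, and overlaps Gm13717.

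Among the Gli genes, Gli3 was found most often. At E18.5 it was present in 35 of 74 cap cells (47.3%, 35.6 to 59.3%), 40 of 71 interstitial cells (56.3%, 44.05 to 68.1%) and 13 of 44 mutant cells (29.5%, 16.8 to 45.2%). At E13.5 it was found in 9 of 18 cap and 13 of 29 mutant cells. Mean log2 levels ran from 1.38 ± 1.62 in E13.5 mutant to 2.13 ± 2.14 in E13.5 cap cells, and the highest value was 116 RPKM, in the interstitium. Detection of Gli3 went with the number of genes per cell. E18.5 cap cells with it had a median of 5888 genes against 4644 without it, interstitial cells 5298.5 against 4497, and E18.5 mutant cells 3980 against 3595. Among cells with 3000 to 5000 genes the mean log2 level of Gli3 was higher in E18.5 mutant than in cap cells. The part of gene number in the lower mutant share was not tested. The gene lies on chromosome 13, 15463235 to 15730025, and overlaps Gm6556.

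Gli1, the most direct transcriptional readout among the 3 Gli genes, was found in 20 of 71 interstitial cells (28.2%, 18.1 to 40.1%) and 9 of 74 E18.5 cap cells (12.2%, 5.71 to 21.8%). Of the mutant cells, 7 of 44 held it at E18.5 and 6 of 29 at E13.5, and of the E13.5 cap cells 4 of 18. Its median was 0 RPKM in every group, and mean log2 levels ran from 0.35 ± 0.87 in E18.5 cap to 1.13 ± 2.21 in E13.5 cap cells. Cells with the transcript were few, and some held much of it: the highest values at E18.5 were 23.5 RPKM in cap, 32.8 in interstitium and 71.7 in mutant cells, and at E13.5 95.3 in cap and 551 in mutant cells. Interstitial cells with Gli1 had a median of 4642 genes against 5290 in cells without it, whereas E18.5 cap cells with it had 6120 against 5057 and E13.5 mutant cells 4702 against 4288. Ptch1, also a response gene, was found in 16 of the 20 interstitial cells with Gli1, in 7 of 9 (E18.5) and 4 of 4 (E13.5) cap cells with it, and in 3 of 7 (E18.5) and 5 of 6 (E13.5) mutant cells with it. Most cells with Ptch1 nevertheless lacked Gli1, 35 of 51 in the interstitium and 38 of 45 in E18.5 cap. Among cells without Gli1, Ptch1 was found in 35 of 51 interstitial, 38 of 65 E18.5 cap and 10 of 14 E13.5 cap cells. Among mutant cells without Gli1 it was found in 12 of 37 (E18.5) and 11 of 23 (E13.5). Of the 20 interstitial cells with Gli1, 19 held Pdgfra and 16 held Boc, beside 39 and 40 of the 51 cells without Gli1. The gene lies on chromosome 10, 127329882 to 127341886, and overlaps Arhgap9.

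Gli2 was found in 16 of 71 interstitial cells (22.5%, 13.46 to 34%) and 5 of 74 E18.5 cap cells (6.76%, 2.23 to 15.1%). Of the mutant cells, 3 of 44 at E18.5 and 3 of 29 at E13.5 held it, and of the E13.5 cap cells 2 of 18. The highest values were 224 RPKM in interstitium and 304 RPKM in E18.5 mutant cells, and the mean log2 level was highest in interstitium, at 0.77 ± 1.62. No Gli transcript was found in 14 of 71 interstitial cells, in 34 of 74 (E18.5) and 7 of 18 (E13.5) cap cells, and in 26 of 44 (E18.5) and 12 of 29 (E13.5) mutant cells. The Gli2 entry lies on chromosome 1, 118834061 to 119053619, and contains Gm51642 and Mir6346.

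**Figure D4:**
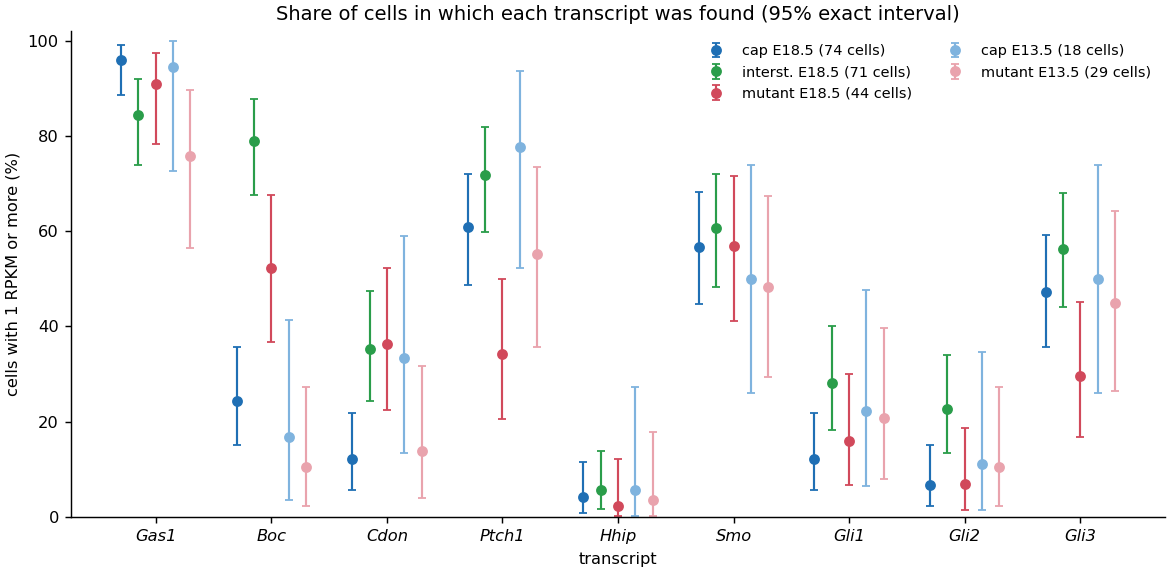
Share of cells (vertical axis, percent) with each transcript at 1 RPKM or more in the 5 groups, with 95% exact binomial intervals, which cover counting error only. For Boc the interval of the interstitium (67.6 to 87.7%) lay above that of E18.5 cap cells (15.1 to 35.7%), while for Smo all 5 intervals overlapped.

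A median of 5 of the 9 transcripts was found per interstitial cell, 4 per E13.5 cap cell and 3 per cell in the other 3 groups. No cell held all 9, and 1 interstitial cell held 8. Ranked by mean log2 level, Gas1 came first in each group. Its step down to the next gene was larger than both SDs in E18.5 cap (3.85), E18.5 mutant (3.03) and E13.5 cap cells (2.49), and smaller in interstitium, where Boc came next (1.37), and in E13.5 mutant cells (1.59). Below Gas1, each step between neighbours was smaller than both SDs in every group.

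The first comparison asked what distinguishes the 2 wild-type compartments at E18.5. Boc was higher in interstitium than in cap by 2.03 log2 units and Gas1 was lower by 1.79, while Cdon was higher by 0.75, Gli2 by 0.58, Ptch1 by 0.56, Gli1 by 0.43, Smo by 0.34, Gli3 by 0.30 and Hhip by 0.13. A gene was counted as past the fold at a difference of 1 log2 unit, and as background at 1 RPKM in 10% of the cells of either group, a level that all members but Hhip reached here. By that measure 1 of the 9 members was higher, against 5.94% of 11219 genes, and 1 was lower, against 2.7%, or 2 either way, against 8.64%. The background itself leaned the other way in subsets of the cells, with 474 genes higher and 629 lower without cells holding at least 20000 RPKM of the pseudogene LOC100503946, against 666 and 303 over all cells. The median difference was 0.43 over the 9 members and 0.01 over all genes. In the same comparison 5 of 6 interstitium and stroma markers were higher past the fold and 5 of 6 nephron progenitor markers lower. Boc was the only one of 54 member differences, over 6 comparisons, that was larger than the SD between cells in both groups. The margin was narrow, at 2.026 against SDs of 2.017 in interstitium and 1.751 in cap.

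Within pool 2, which holds cells of both compartments, the differences were 2.49 for Boc, 1.08 for Cdon and -1.39 for Gas1, so that 2 members were higher (7.24% of 11240 genes) and 1 lower (5.34%). Without the 23 cap cells and 22 interstitial cells that held at least 2 markers of the other's list, a restriction chosen after the data were seen, the differences were 2.37 for Boc and -2.18 for Gas1, and 633 genes were higher and 1074 lower. The sign for Gli3 turned in pool 2 alone (-0.08) and without the cells high in the pseudogene (-0.11), and that for Smo among cells with 3000 to 5000 genes (-0.06). For Boc the difference depended on how low values were weighed, at 0.72 with 10 RPKM added before the logarithm and 3.64 with 0.1 RPKM added. For Gas1 it lay between -2.74 and -1.14 over all 9 alternatives.

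In E18.5 mutant cells compared with wild-type cap, which asks what loss of Pax2 goes with, the 2 co-receptors Boc (1.32) and Cdon (1.14) were higher, and Gas1 was close to its cap level (-0.30). Smo differed by 0.52, Gli1 by 0.35, Gli2 by 0.25, Hhip by 0.03, Gli3 by -0.34 and Ptch1 by -0.45. Thus 2 of the 9 members were higher past the fold, against 4.51% of 11100 genes, and 0 were lower, against 23.2%. Gli2 and Hhip did not reach the detection level of that background, so 7 members were among the 11100 genes. The median difference was 0.25 over the members and -0.40 over all genes, and the mutant cells also had fewer genes per cell (medians 3643 and 5210.5). Past the fold, 6 of 6 interstitium and stroma markers were higher there, and 5 of 6 nephron progenitor markers and 5 of 5 genes of S, G2 and M phase were lower. The part of these in the co-receptor differences was not tested. Among cells with 3000 to 5000 genes, 33 mutant and 26 cap cells, the median of all genes was -0.04. When the log2 ratio of group mean RPKM was taken in place of the mean of logs, 2070 of the 11100 genes were higher and 2475 lower past the fold, instead of 501 and 2573, and 4 members were higher. Boc was higher past the fold in both of these, Cdon was not among the cells of 3000 to 5000 genes (0.93), and the sign for Ptch1 and Gli3 differed from that above in both. Leaving out the 23 cap cells with stromal markers gave 1.45 for Boc and 1.29 for Cdon.

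Mutant cells of E18.5 were also set beside wild-type interstitium, whose markers they carried. Gas1 was higher in the mutant cells by 1.49 and Ptch1 lower by 1.01, while Boc (-0.70), Cdon (0.39), Gli3 (-0.65), Gli2 (-0.33), Smo (0.18), Hhip (-0.09) and Gli1 (-0.07) lay within the fold. The count was thus 1 of 9 higher, against 2.05% of 10903 genes, and 1 of 9 lower, against 23.4%, with a median of -0.09 over members and -0.41 over all genes. The value for Ptch1 lay at the threshold and fell inside it in 5 of 8 alternatives, with a range of -2.31 to -0.08. Gas1 was past the fold in 7 of 8 alternatives and not with ratios of mean RPKM (0.87), where Gli1 (1.08) and Cdon (1.06) were the members higher. This comparison and those of E18.5 mutant and of interstitium with cap share their groups, so their differences are not independent. On the co-receptors the mutant cells stood between the wild-type groups for Boc, near the interstitium for Cdon and near the cap for Gas1.

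At E13.5, where mutant and wild-type cap cells share pool 3, no member differed past the fold. Gas1 (-0.97), Gli3 (-0.75), Ptch1 (-0.71) and Cdon (-0.58) were lower in mutant cells, and Smo (0.25), Gli2 (0.05), Boc (0.01), Hhip (0.01) and Gli1 (-0.07) lay near 0. The count of 0 of 9 higher stood against 1.43% of 11449 genes and the count of 0 of 9 lower against 27.7%, with medians of -0.07 over members and -0.45 over all genes. Here too 5 of 5 genes of S, G2 and M phase and 4 of 6 nephron progenitor markers were lower past the fold. Higher past it were 2 of 6 interstitium and stroma markers, and the part of these was not tested. For Gas1 the sign changed when group means of RPKM were compared and among cells with 3000 to 5000 genes, of which only 2 were wild-type. Gli3 (1.37) and Cdon (0.48) also turned sign among those cells. The 3 cells with Boc in each group gave shares whose intervals reach 41.4% in cap and 27.4% in mutant cells. Whether the mutant's difference in Boc and Cdon changed with age was not tested, since each age and genotype is 1 sample.

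Between the ages, E18.5 cap cells exceeded E13.5 cap cells in Gas1 by 1.06, and 0.48 was the difference for Boc, -0.50 for Cdon, -0.71 for Ptch1 and -0.77 for Gli1. Smo (0.02), Hhip (-0.05), Gli2 (-0.12) and Gli3 (-0.35) lay nearer to 0. In wild-type cap 1 of 9 members was higher past the fold, against 2.53% of 11423 genes, and 0 were lower, against 14.5%. With ratios of mean RPKM, 1717 genes were higher and 1531 lower, instead of 289 and 1659. Beside this, 5 of 5 genes of S, G2 and M phase were lower past the fold at E18.5 and 3 of 6 nephron progenitor markers higher, and their part was not tested. In mutant cells all 3 co-receptors were higher at E18.5, Boc by 1.79, Gas1 by 1.73 and Cdon by 1.21. The other 6 members lay between -0.45 for Ptch1 and 0.29 for Smo. The set past the fold depended on how cells were averaged. With ratios of mean RPKM it held Gli2 (2.57), Cdon (2.55), Boc (2.12) and Gli3 (1.27) on the higher side, but not Gas1 (0.93). Gli1 (-1.94) was lower past the fold there. With 10 RPKM added, Boc (0.68) and Cdon (0.50) were no longer past it. In the main setting 3 of 9 members were higher, against 6.69% of 10872 genes, and 0 lower, against 11.5%. The median was 0.08 over members and -0.16 over all genes. In the same comparison 5 of 6 interstitium and stroma markers were higher past the fold and 5 of 5 genes of S, G2 and M phase were lower, and their part in the co-receptor differences was not tested. The ages differ in date in both comparisons and also in pool.

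**Figure D5:**
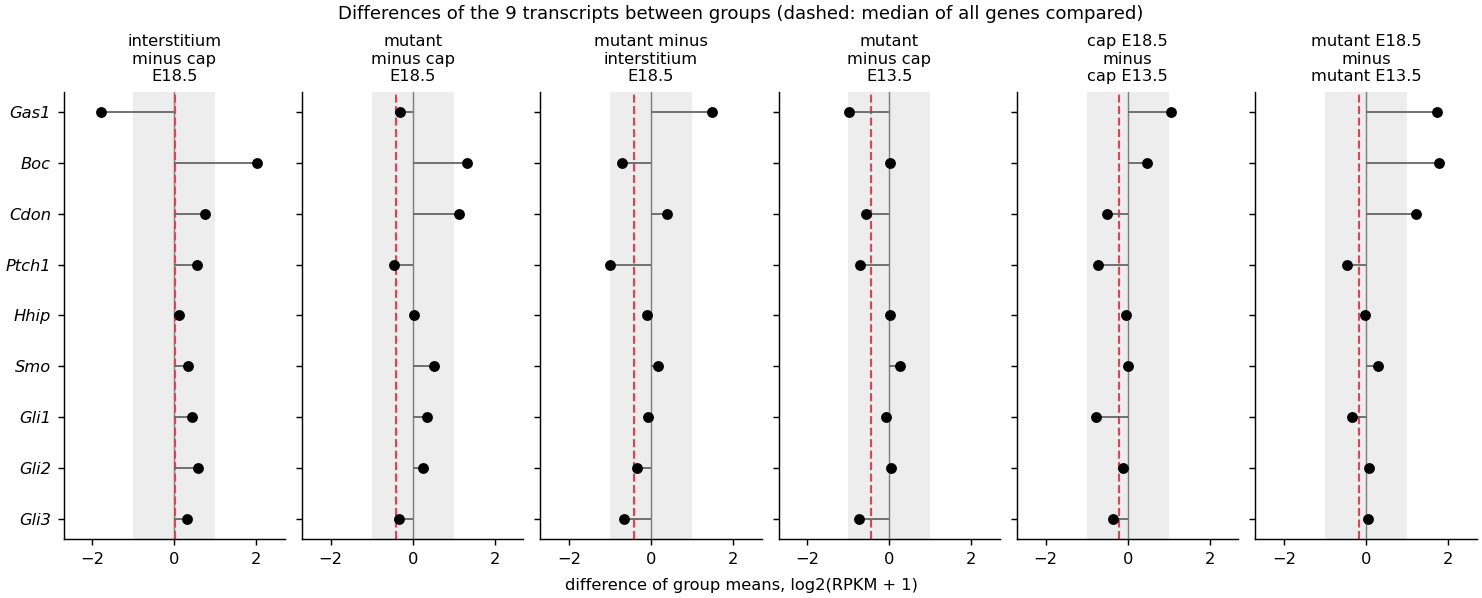
Difference of group means of log2(RPKM + 1) (horizontal axis) for the 9 transcripts in the 6 comparisons, with the range inside 1 log2 unit in grey and the median of all genes compared as a dashed line. Points outside the grey are Boc and Gas1 (interstitium minus cap), Boc and Cdon (mutant minus cap, E18.5), Gas1 and Ptch1 (mutant minus interstitium), Gas1 (cap, E18.5 minus E13.5) and Gas1, Boc and Cdon (mutant, E18.5 minus E13.5).

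Ligand transcripts were almost absent. Shh and Ihh were at 0 in every cell of the 5 groups, and Dhh was found in 1 E13.5 cap cell, at 30.5 RPKM. A count of 0 allows a share of up to 4.05% in cap, 4.23% in interstitium and 6.82% in mutant cells of E18.5, and of up to 16.7% in cap and 10.3% in mutant cells of E13.5. The ureteric epithelium, the known source of Shh, was itself poorly represented: at least 2 of its 6 markers (Ret, Wnt11, Calb1, Hoxb7, Gata3, Wnt9b) were found in 5 interstitial cells, 3 cap cells (1 of E18.5, 2 of E13.5) and 2 mutant cells (1 of each age). Shh was at 0 in these cells too, and the part of cell type makeup in the missing ligand transcripts was not tested.

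A further 49 pathway genes in 7 lists were read in the same comparisons. Of 6 genes for ligand processing and release, in interstitium minus cap 1 was higher, Hhat (1.45), which attaches a lipid to the ligand, and 1 lower, Disp1 (-1.13), which releases it. Disp1 was found in 36 of 74 E18.5 cap and 15 of 71 interstitial cells. Of 5 other receptors and surface modulators only Gpc3 (2.46), a glypican that binds ligand, was past the fold, and it was found in every cell of both groups. Of 12 genes of Smo regulation and the cilium 0 were higher and 1, Ift88 (-1.12), was lower, and of 11 genes of Gli processing, such as Sufu and Kif7, none was past the fold in either direction. These counts stand against 5.94% of 11219 genes higher and 2.7% lower. In lists this short they are descriptions only.

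Among 10 genes reported as Hedgehog targets in mesenchyme, 3 were higher in interstitium than in cap: the cyclin genes Ccnd2 (5.28) and Ccnd1 (3.26) and Sfrp1 (4.83), which encodes a secreted Wnt inhibitor. Over all genes 5.94% were higher, and 2.7% lower, a balance that turned in the subsets of cells named above. Bcl2 (-2.11), which protects from cell death, was lower, and Foxf1 and Foxf2 were at 0 in all cells. The cyclins and Sfrp1 respond to other signals too. In the interstitium Ccnd1 was found in 15 of 20 cells with Gli1 and 39 of 51 without it. Gli1 missing from a cell may lie below detection, and the part of Hedgehog signalling in these differences was not tested. In E18.5 mutant minus cap, Ccnd2 (3.05) and Sfrp1 (4.07) were again higher, and Bcl2 (-2.29) and Mycn (-1.20) lower. That is 2 of 10 each way, against 4.51% of 11100 genes higher and 23.2% lower. In E18.5 mutant minus interstitium, Ccnd1 (-2.81), Ccnd2 (-2.23) and Mycn (-2.16), which promote cell division, were lower, beside 5 of 5 genes of S, G2 and M phase. Of the 10 targets 3 were thus lower, near the 23.4% of 10903 genes. Of 4 kidney genes reported to be repressed by truncated Gli3 (Pax2, Sall1, Ccnd1, Mycn), 1 was higher and 2 lower in interstitium than in cap, Pax2 by -1.88 and Sall1 by -1.32.

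In the mutant comparisons, where the median of all genes was below 0, the listed genes past the fold were mostly lower. In E18.5 mutant minus cap, 2 of 12 Smo and cilium genes (Dync2h1 at -1.38 and Ift27 at -1.19, both in ciliary transport) and 2 of 11 Gli processing genes (Prkaca at -2.27, a catalytic subunit of protein kinase A, and Cul3 at -1.51, part of a ubiquitin ligase) were lower past the fold, and 0 of either list were higher. At E13.5 the counts were 1 higher (Kif3a, 1.05) and 1 lower (Ift27, -1.12) of 12, and 0 higher and 2 lower (Spop at -1.09 and Cul3 at -1.05) of 11. Those shares are at or below the 23.2% and 27.7% of all genes that were lower. Against interstitium, 4 of 11 Gli processing genes were lower in E18.5 mutant cells: Prkaca (-1.97), Cul3 (-1.66), Spop (-1.52) and Prkar1a (-1.37), beside 23.4% of all genes. With age, 1 of 11 was lower in each genotype, Cul3 by -1.03 in cap and -1.49 in mutant cells.

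For each member found in at least 10% of cells, the 3 genes most like it were taken by Pearson correlation of log2(RPKM + 1) over the cells of all 5 groups, among 9782 genes. The values were low and also reflect what separates the groups, so they are descriptions only. Boc came with Ifitm3 (0.49), Bgn (0.45), a gene of the extracellular matrix, and Akap12 (0.44). Within the 71 interstitial cells the same 3 stood at 0.24, 0.19 and 0.38. Gas1 came with Nr2f2 (0.43), a nuclear receptor gene, Capn6 (0.38) and Btg1 (0.35), and within the interstitium with 0.27, 0.42 and 0.22. Cdon came with Ntn1 (0.40), the gene of the guidance cue netrin 1, Rian (0.39) and Smoc2 (0.38). The nearest genes to Gli3 (Mgme1, 0.37), Gli1 (Trim43b, 0.32), Ptch1 (Rassf1, 0.30), Gli2 (Mical3, 0.30) and Smo (Col6a2, 0.29) were weaker still, and in values this sparse such coefficients are no finding.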

How the data were processed

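The authors deposited 1 table of RPKM for 36186 gene entries in 237 single cells, captured on a microfluidic device. Reads were aligned to mm10 with TopHat, per the submitters' processing notes. The aligner version, gene models and counting rule are not given in the sources used here, and with no counts the depth per cell is unknown. Groups follow the labels for source, genotype and age. One cell whose labels conflict entered no group. Means of log2(RPKM + 1) with SDs, shares of cells at 1 RPKM with 95% exact Clopper-Pearson intervals, and differences of means were computed in Python 3.11.15 (pandas 2.3.3, numpy 2.4.6, scipy 1.17.1). For a count of 0, the limit given is 3 divided by the number of cells, which is below the upper end of the exact interval. Adding 1 RPKM understates differences of low genes. No doublet caller was used, and no 2 cells were identical. Each group is 1 sample, so no p-value was computed. Alternatives were 0.1 or 10 RPKM added, other scalings per cell, ratios of mean RPKM, other detection levels, cells with 3000 to 5000 genes, and subsets by pool, pseudogene level or markers, the last chosen after the data were seen. The scripts were tested on simulated data. The members and gene lists were chosen with earlier results of these data known. Named genes are the members, Pax2, listed pathway genes past 1 log2 unit or encoding ligands, listed markers, and the 3 genes most correlated with each member. Sufu, Kif7, Foxf1 and Foxf2 were named after their values were seen. Sequences are from RefSeq (GRCm38.p6). No protein sequence was used here.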

Additional observations from a re-analysis of the deposited data

How the results depend on the processing

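No member difference past 1 log2 unit changed sign under any alternative, but the counts of members past the fold moved. No paired analysis was possible because the labels match no cells across groups. With 0.1 RPKM added, interstitium minus cap had 3 members higher, beside 1456 of 11219 genes. Lower members numbered 2 in E18.5 mutant minus cap (4862 of 11100 genes), 3 in mutant minus interstitium (4807 of 10903) and 3 in mutant minus cap at E13.5 (5212 of 11449). Between ages 3 were lower in cap (3059 of 11423 genes) and 1 in mutant (2795 of 10872). With 10 RPKM added, members higher were 0 in interstitium minus cap (182 of 11219 genes) and 0 in E18.5 mutant minus cap (203 of 11100). Between ages 0 were higher in cap (39 of 11423 genes) and 1 in mutant (235 of 10872). In mutant minus interstitium 0 were lower (639 of 10903 genes). Comparing group mean RPKM gave 2 members higher in interstitium minus cap (1454 of 11219 genes) and 4 in mutant minus cap at E18.5 (2070 of 11100). It gave 2 in mutant minus interstitium (1607 of 10903) and 2 in mutant minus cap at E13.5 (1964 of 11449). Between ages 3 were higher in cap (1717 of 11423) and 4 instead of 3 in mutant (2474 of 10872). Members lower were 0 in mutant minus interstitium (2306 genes) and 1 in mutant minus cap at E13.5 (2439). In each age comparison 1 was lower (1531 genes in cap, 2357 in mutant). Among cells with 3000 to 5000 genes, members higher were 3 in interstitium minus cap (1139 genes) and 1 in mutant minus cap at E18.5 (978). They were 2 in mutant minus cap at E13.5 (2371 genes) and 3 in cap between ages (2185). Members lower were 2 in mutant minus cap at E13.5 (2721 genes), 2 in cap between ages (2878) and 1 in mutant between ages (1350). Of E13.5 cap only 2 cells were kept here. Rescaling to the same RPKM sum, median-ratio scaling and leaving out cells with at least 20000 RPKM of the pseudogene LOC100503946 each took the lower count of mutant minus interstitium, which was Ptch1, to 0. The genes lower were 2465, 2391 and 2699 of 10903 in that order. Pool 2 alone gave 2 members higher in interstitium minus cap (813 of 11219 genes). The cause of these moves was not tested. Median-ratio scaling moved the median of all genes from -0.45 to -0.32 in mutant minus cap at E13.5. Scaling per cell moved the share of higher genes among those past the fold by under 10 percentage points, while ratios of mean RPKM brought it from 16.3 to 45.5% in mutant minus cap at E18.5 and from 4.92 to 44.6% at E13.5. The number of cells per group and the unknown depth limit what can be seen: most members are found in a minority of cells, and for Gli1, Gli2 and Hhip a few cells set each mean.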

Other observations

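For 1 E13.5 wild-type cell the labels disagree, with cap mesenchyme as the source and interstitial as the cell type, and it was left out of every group. It held 6570 genes at 1 RPKM or more. Gas1 stood at 83.8 RPKM, Smo at 10.9, Gli3 at 4.75 and Gli1 at 3.06, while Ptch1 (0.24) and Boc (0.03) were under 1 RPKM and Gli2, Cdon and Hhip were at 0.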
